A study of Mus musculus with 6 samples.

Results

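Fatty acid synthesis and desaturation were followed through 10 genes of RNA from mouse embryonic fibroblasts (MEFs), connective-tissue cells grown out of embryos. The 10 genes were given by name (Acly, Acaca, Acacb, Fasn, Elovl6, Scd1, Scd2, Fads1, Fads2 and Srebf1) and were found by symbol among 55487 gene identifiers. There were 6 libraries of total RNA from untreated cells, 1 for each of wild-type (WT) and knockout (KO) cultures at passages 2, 3 and 4, a passage being 1 round of detaching and replating. The labels do not name the gene that was knocked out, the strain or the age of the embryos, and they do not say how many embryos or cultures were used, so p-values reflect the scatter of these libraries alone, which may be technical. Genotype was taken from the library titles. A separate genotype tag reads WT for 2 libraries titled KO, those of passages 3 and 4, so by the tag 1 KO library stands against 5.

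The genes lie along 1 route. Citrate exported from mitochondria is cleaved to cytosolic acetyl-CoA by ATP citrate lyase (Acly), and acetyl-CoA is carboxylated to malonyl-CoA by the acetyl-CoA carboxylases (Acaca in the cytosol, Acacb at the mitochondrial surface, where malonyl-CoA restrains fatty acid import for oxidation). Fatty acid synthase (Fasn) builds palmitate from these units, Elovl6 lengthens palmitate to stearate, the stearoyl-CoA desaturases (Scd1, Scd2) place a double bond at the delta-9 position, and Fads1 and Fads2 desaturate polyunsaturated fatty acids at the delta-5 and delta-6 positions. Srebf1 encodes SREBP-1, a membrane-held transcription factor that activates most of these genes once it is cleaved. In fibroblasts the route supplies membrane lipid, and in adipocytes, which share a mesenchymal origin with fibroblasts, it supplies stored fat.

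The desaturase pair was the most abundant of the paralog pairs and the one with the most similar sequence, which bears on how reads were divided between its members. Scd1 (chr19:44394455-44407879, minus strand) and Scd2 (chr19:44293674-44306864, plus strand) are neighbours on GRCm38. Their coding sequences were identical at 962 of 1065 aligned bases (90.3%), against 72.3% for Acaca and Acacb and 67.9% for Fads1 and Fads2. A stretch of 60 bases in exon 4 of both genes held no mismatch (Scd1 chr19:44401827-44401886, Scd2 chr19:44299621-44299680), so a read that lies wholly inside it does not tell the genes apart.
Scd1 and Scd2, exon 4: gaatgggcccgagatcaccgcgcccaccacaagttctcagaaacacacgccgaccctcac
In a stretch of 60 bases in exon 2 the genes differed at 24 bases, shown in capitals, the most of any ungapped stretch of that length (Scd1 chr19:44406647-44406706, Scd2 chr19:44294967-44295026).
Scd1, exon 2: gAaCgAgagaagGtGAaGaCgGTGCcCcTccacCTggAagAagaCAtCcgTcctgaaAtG
Scd2, exon 2: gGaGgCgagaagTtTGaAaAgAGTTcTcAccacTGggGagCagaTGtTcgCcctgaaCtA
Of all 64-base words in the transcripts of each gene, 3.5% of those of Scd1 and 2.34% of those of Scd2 occurred in transcripts of another gene. Acaca stood apart with 28.24%, and 27.47% of all its words occurred in Gm5182, so the counts of Acaca are uncertain. The other members shared between 0.0% and 2.9%.

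RefSeq promoter windows (build GRCm38.p6, 250 bases before to 50 after a start site) were given for 7 of the 10 genes, in 9 windows. Those of Fasn and Acacb are shown because these members had the fitted KO differences farthest above and farthest below 0. Acly, whose KO libraries also lay below all WT libraries, by a narrow gap, has a window with 1 CCAAT that is not printed. Capitals mark CCAAT or its reverse complement ATTGG (the core of the NF-Y site), ATCACCC or GGGTGAT (a form of the sterol regulatory element) and the palindrome CACGTG (an E-box), each searched on both strands.
Fasn, chr11:120824498-120824797, minus strand: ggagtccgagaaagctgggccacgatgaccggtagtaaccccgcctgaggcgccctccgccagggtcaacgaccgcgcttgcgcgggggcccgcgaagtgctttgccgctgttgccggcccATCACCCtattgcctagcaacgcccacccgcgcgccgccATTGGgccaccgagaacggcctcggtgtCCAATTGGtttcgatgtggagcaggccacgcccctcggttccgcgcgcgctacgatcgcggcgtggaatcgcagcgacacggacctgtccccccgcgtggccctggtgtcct
Acacb, chr5:114165268-114165567, plus strand: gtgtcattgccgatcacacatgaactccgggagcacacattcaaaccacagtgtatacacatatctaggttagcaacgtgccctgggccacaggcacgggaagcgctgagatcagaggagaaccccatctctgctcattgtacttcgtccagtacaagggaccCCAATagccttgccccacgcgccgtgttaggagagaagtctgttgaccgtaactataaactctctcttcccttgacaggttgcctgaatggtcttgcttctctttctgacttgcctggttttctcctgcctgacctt
The Fasn window held CCAAT 3 times, 2 of them overlapping as CCAATTGG, and ATCACCC 1 time, and 69.3% of its bases were G or C. The Acacb window held CCAAT 1 time and neither other motif, with 51.7% G or C. It lies inside the gene (chr5:114146535-114250761, plus strand), downstream of the outermost annotated start. Among 32817 windows of the same length, 37.39% held CCAAT, 2.69% held ATCACCC and 7.15% held CACGTG, so CCAAT is a common word. A match is a description of the letters only.

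Library totals ran from 24853121 to 67760880 expected counts. Levels of 1 gene across libraries are given as CPM (reads per gene after TMM scaling for depth), and levels of different genes are compared as TPM (transcript abundances scaled for length). A change was called at a Benjamini-Hochberg adjusted p under 0.05 in edgeR's quasi-likelihood test over 16603 genes, and all 10 members passed the filter on low counts. All 11 fibroblast markers were detected, with summed levels of 48994 to 60015 CPM in WT and 28346 to 32485 CPM in KO. Most of each sum was Col1a1, Col1a2, Col3a1 and Fn1. Pdgfra, Col3a1, Col1a2, Col1a1 and Dcn fell in KO, and the other markers were not called. Among those, Vim had a higher mean in KO (2252 against 1961 CPM), and the rest had lower means. Embryo sex went with genotype as titled. The KO-titled libraries of passages 3 and 4, tagged WT, had 417 and 567 CPM of Xist, and that of passage 2 had 564 CPM. Xist, the RNA of the inactive X chromosome, had 417 to 567 CPM in KO and 0.118 to 0.301 CPM in WT, and the Y-linked gene Ddx3y had 0.0 to 0.731 CPM in KO and 73.4 to 88.0 CPM in WT. Sex and genotype therefore cannot be told apart in any comparison of WT with KO below.

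Scd2 was the most abundant member in every library and Acacb the least. Mean TPM over the 6 libraries was 681 for Scd2, 187 for Scd1, 164 for Acly, 155 for Fads1, 110.1 for Fasn, 107 for Fads2, 59.8 for Srebf1, 48.3 for Acaca, 26.3 for Elovl6 and 1.66 for Acacb. The lowest Scd2 library (519 TPM) lay above the highest Scd1 library (317 TPM). Next in the order, Scd1, Acly and Fads1 each overlapped their neighbour across libraries, as did Fasn with Fads2 and Srebf1 with Acaca. Gaps without overlap separated Scd2 from Scd1, Fads1 from Fasn, Fads2 from Srebf1, Acaca from Elovl6, and Elovl6 from Acacb.

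In WT against KO, Acacb was the 1 member of 10 that passed the test, with a lower level in KO, where 2.48% of all genes tested were called in either direction and 1.55% were called lower. The desaturases Scd2 and Scd1 were also lower in KO at each passage, as were 27.4% of all genes tested. Both were called when each KO library was set against the WT library of its own passage. That fit called 11.1% of all genes in either direction and 6.37% lower. Fasn was the only member higher in KO at each passage, where 24.1% of all genes were. Across passages, Scd1 was the only member called, and it fell by a fitted 1.60-fold per passage. There 6.25% of all genes were called in either direction and 3.48% lower.

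**Figure D1:**
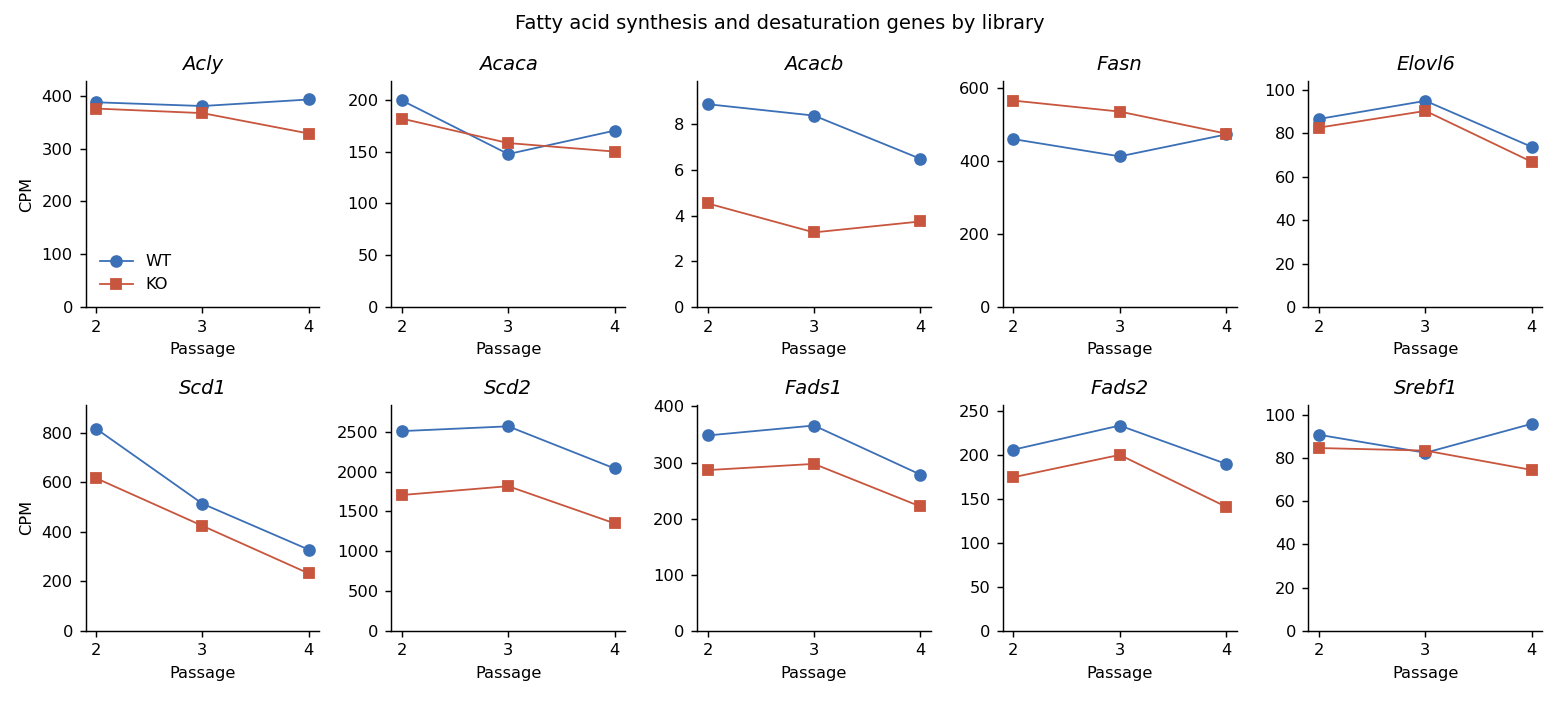
Level of each of the 10 genes in every library, in TMM-scaled CPM on linear axes that start at 0, by passage, with 1 point per library and WT and KO in separate colours. KO lies below WT at each passage for Acacb (3.27 to 4.54 against 6.50 to 8.89 CPM) and Scd2 (1350 to 1817 against 2040 to 2569 CPM), and Scd1 descends with passage in both genotypes.

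Counting directions in CPM without a test, KO was below WT at all 3 passages for 7 members (Acly, Acacb, Elovl6, Scd1, Scd2, Fads1 and Fads2), where 27.4% of all genes tested were. It was above at all 3 passages for 1 member, Fasn, where 24.1% of all genes were. In TPM KO was below at all 3 passages for Scd1, Scd2 and Fads1 alone. Of those 7, KO was above WT at passage 3 for Acly (169 against 146 TPM), Elovl6 (30.3 against 26.6) and Fads2 (118 against 115). At passage 4 KO was above WT in TPM for Elovl6 (24.6 against 22.5) and Acacb (1.41 against 1.26). TPM carries no TMM scaling, so a shift common to the genes of a library stays in these TPM directions. Over all genes tested the median genotype difference was 0.08 on log2(TPM + 1), against -0.01 in the main test on counts. The WT and KO ranges in CPM did not overlap for 4 members (KO below for Acly, Acacb and Scd2, KO above for Fasn), against 27.2% of all genes in either direction (14.1% with KO below and 13.1% with KO above). The median genotype difference of the 10 members was -0.22 on the log2 scale, and that of all genes tested was -0.01.

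**Figure D2:**
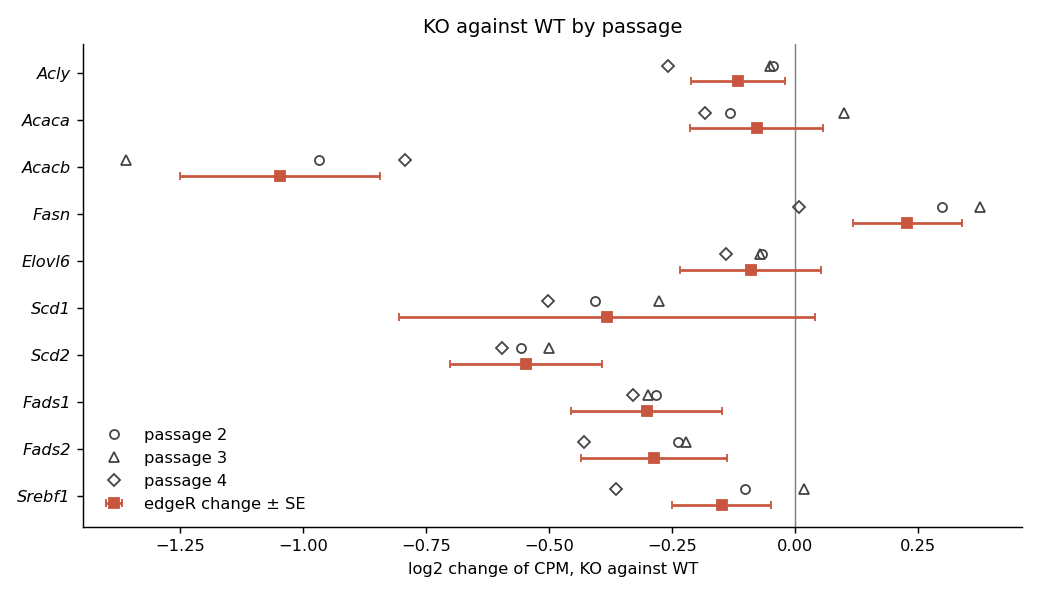
Difference between KO and WT of each member on the log2 scale, from the genotype test (points, with bars of 1 SE) and in each same-passage pair of libraries. Acacb is farthest below 0 (-1.05 ± 0.20), Scd2 is next (-0.55 ± 0.15), and Fasn is the only member above 0 (0.23 ± 0.11).

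The first step, citrate cleavage by Acly (chr11:100476353-100528000, minus strand), held nearly the same level throughout. Acly had 388, 380.4 and 393 CPM in WT at passages 2, 3 and 4, and 376, 367 and 328 CPM in KO. The highest KO library was just under the lowest WT library, and the KO library of passage 4 was the lowest. The genotype difference was -0.12 ± 0.10 on the log2 scale (SE, 3 libraries per genotype, adjusted p = 0.534). In TPM the ranges overlapped, at 146 to 180 in WT and 161 to 169 in KO.

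The carboxylases differed from each other in both level and genotype difference. Acacb had 8.89, 8.39 and 6.50 CPM in WT at passages 2, 3 and 4, and 4.54, 3.27 and 3.75 CPM in KO, which rest on 118 to 376 expected counts per library. Every KO library lay below every WT library. The fold was 2.07 lower in KO (log2 -1.05 ± 0.20, adjusted p = 0.0453, and 0.0147 with passage as a block), and the log2 differences of the same-passage pairs were -0.97, -1.36 and -0.79. The call ended without the WT library of passage 2 (adjusted p = 0.118), the WT library of passage 3 (0.189), or the KO library of passage 2 (0.0744), passage 3 (0.246) or passage 4 (0.0972), while the log2 difference stayed between -1.18 and -0.94. Offsets for each library's own effective lengths ended it too (log2 -0.90, adjusted p = 0.144), as did limma on log2(TPM + 1) (log2 -0.45 there, adjusted p = 0.308). At 1.09 to 2.61 TPM, the added 1 itself makes that log2 difference smaller. The TPM of passage 4 also ran the other way (1.26 in WT and 1.41 in KO), and the part of each was not tested.

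Effective length is the mean length of a gene's transcripts, weighted by their estimated abundance and reduced for fragment size, so it moves when the estimated mix of transcripts moves. For Acacb it was 6159, 5241 and 8334 bases in WT at passages 2, 3 and 4 and 6268, 5396 and 5138 bases in KO. The WT library of passage 4 stood apart with the longest value. Acacb in TPM was 2.61, 2.41 and 1.26 in WT and 1.18, 1.09 and 1.41 in KO, so that at passage 4 the order of the genotypes was opposite to that in CPM. As a share of Acaca and Acacb together, Acacb made up 4.01%, 5.87% and 2.73% of the TPM in WT and 2.41%, 2.30% and 2.77% in KO, with overlapping ranges.

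Acaca (chr11:84129672-84401651, plus strand), which supplies malonyl-CoA for synthesis, had 199, 148 and 170 CPM in WT and 182, 158 and 150.0 CPM in KO at passages 2, 3 and 4. The ranges overlapped and the highest library of each genotype was that of passage 2. The genotype difference was -0.08 ± 0.14 (log2, adjusted p = 0.791). RSEM divides reads that also match Gm5182, so both this level and its difference are uncertain.

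Fasn (chr11:120805846-120824547, minus strand), whose promoter window is printed above, had 460.3, 413 and 473 CPM in WT at passages 2, 3 and 4 and 566, 536 and 475 CPM in KO. Every KO library was above every WT library, but at passage 4 the pair were nearly level, with log2 differences of 0.30, 0.38 and 0.01 at passages 2, 3 and 4. The genotype difference did not pass the test (log2 0.23 ± 0.11, adjusted p = 0.286). In TPM the ranges were also apart, at 81.1 to 106 in WT and 118 to 127 in KO. No other member had a positive fitted difference.

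Elovl6 (chr3:129532355-129638495, plus strand) had 86.7, 95.1 and 73.8 CPM in WT and 82.7, 90.4 and 66.9 CPM in KO. In both genotypes passage 3 was the highest and passage 4 the lowest, and the genotypes overlapped. The log2 differences of the 3 pairs were -0.07, -0.07 and -0.14, and the genotype difference was -0.09 ± 0.14 (adjusted p = 0.769).

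Scd2, the main desaturase transcript of these cells, had 2509, 2569 and 2040 CPM in WT at passages 2, 3 and 4 and 1706, 1817 and 1350 CPM in KO. Every KO library was below every WT library, in TPM as well. The log2 differences of the 3 pairs lay close together at -0.56, -0.50 and -0.60. In the genotype test Scd2 did not pass (log2 -0.55 ± 0.15, adjusted p = 0.109), and with passage as a block it did (-0.55 ± 0.10, adjusted p = 0.0169). DESeq2 without the block called Scd2 (adjusted p = 0.0177) and Acacb lower, where it called 5.52% of all genes lower.

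Scd1 had 816, 513 and 328 CPM in WT at passages 2, 3 and 4 and 616, 424 and 231 CPM in KO. The ranges overlapped because each genotype spread widely over the passages, but KO was below WT at each passage, with log2 differences of -0.41, -0.28 and -0.50. The genotype difference was -0.38 ± 0.42 (adjusted p = 0.655) without the block and -0.39 ± 0.09 (adjusted p = 0.0395) with it. With the block 3 members were called lower (Acacb, Scd1 and Scd2), none higher, and 11.1% of all genes tested were called in either direction (6.37% lower). In that same fit 4 of 8 macrophage markers (Adgre1, Csf1r, Ptprc and Itgam), 1 of 7 adipocyte markers (Lpl, log2 -1.18, adjusted p = 0.00413) and 6 of 11 fibroblast markers were called lower in KO, and their part in the member differences was not tested. The summed macrophage markers were 60.3 to 391 CPM in WT and 43.9 to 282 CPM in KO. Without the block, leaving out the WT library of passage 2 brought the Scd1 difference to 0.0084 (adjusted p = 0.994), and leaving out the KO library of passage 2 brought it to -0.75.

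The polyunsaturated fatty acid desaturases moved alongside Scd2 across the libraries. Fads1 (chr19:10182888-10196877, plus strand) had 348, 366 and 279 CPM in WT and 287, 298 and 222 CPM in KO at passages 2, 3 and 4. Fads2 (chr19:10062765-10101746, minus strand), which catalyses the first and rate-limiting step of that route, had 206, 233 and 190 CPM in WT and 174, 200 and 141 CPM in KO. In CPM, passage 3 was the highest and passage 4 the lowest for both genes in each genotype. KO was below WT in CPM at each passage, and the ranges of the genotypes overlapped. In TPM, Fads2 at passage 3 was 118 in KO and 115 in WT. The genotype differences were -0.30 ± 0.15 for Fads1 (log2, adjusted p = 0.311, and 0.0623 with the block) and -0.29 ± 0.15 for Fads2 (adjusted p = 0.315, and 0.0762 with the block). Leaving out the KO library of passage 4 brought them to -0.18 and -0.16, and the values farthest from 0 over the 6 single omissions were -0.40 and -0.41. Fads1 made up 57.4% to 61.1% of the summed TPM of Fads1 and Fads2 in every library, 59.2% ± 1.84 in WT and 59.1% ± 1.09 in KO (SD, n = 3).

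Srebf1 (chr11:60199089-60222581, minus strand), the regulator, had 90.7, 82.4 and 95.8 CPM in WT at passages 2, 3 and 4 and 84.6, 83.4 and 74.4 CPM in KO. The ranges overlapped, and the pair of passage 4 was the farthest apart (log2 -0.36, against -0.10 and 0.02). The genotype difference was -0.15 ± 0.10 (adjusted p = 0.440). Exons of Rai1 and Mir6922 cover 3.11% of its exon bases, those of Rai1 from the opposite strand, and whether counting used strand is not given in the sources used here. Transcript level does not show how much SREBP-1 was cleaved.

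Passage separated Scd1 from the other 9 members. The Scd1 level at passage 4 was 40.1% of that at passage 2 in WT and 37.6% in KO, that is 2.49-fold and 2.66-fold lower. The fitted slope was -0.68 ± 0.06 on the log2 scale per passage (adjusted p = 0.00163), where 6.25% of all genes tested were called in either direction and 3.48% were called lower. Fitted alone, the slopes were -0.66 ± 0.11 in WT and -0.71 ± 0.07 in KO. The call held when any 1 of the 6 libraries was left out (-0.70 to -0.63, highest adjusted p = 0.0257), and ended without both libraries of passage 2 (-0.76, adjusted p = 0.0993) or both of passage 4 (-0.60, adjusted p = 0.0892), fits that hold 4 libraries.

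From passage 2 to 4 the other members moved by between -0.45 (Acacb in WT) and 0.08 (Srebf1 in WT) on the log2 scale. Their fitted slopes were between -0.18 (Acacb, adjusted p = 0.369) and -0.02 (Srebf1, adjusted p = 0.866) per passage. Those of Fads1 (-0.17 ± 0.07, adjusted p = 0.218), Scd2 (-0.16 ± 0.07, 0.272), Elovl6 (-0.13 ± 0.08, 0.363), Acaca (-0.13 ± 0.07, 0.323), Fads2 (-0.11 ± 0.08, 0.535), Fasn (-0.05 ± 0.06, 0.70) and Acly (-0.04 ± 0.05, 0.716) lay between. Passage 4 was below passage 2 in both genotypes for 7 members (all but Acly, Fasn and Srebf1), where 30.1% of all genes tested were. Only Scd1 was lower at both steps in both genotypes, where 8.91% of all genes were.

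The share of Scd1 in the desaturase pair declined with the Scd1 level. Of the summed TPM of Scd1 and Scd2, Scd1 made up 26.1%, 18.8% and 16.7% in WT at passages 2, 3 and 4 and 28.3%, 20.8% and 15.8% in KO. The genotypes overlapped, and within each the order by passage was the same. The ratio of Scd2 to Scd1 in TPM went from 2.84 to 4.97 in WT and from 2.53 to 5.32 in KO between passages 2 and 4. The summed TPM of the pair was 1214, 952 and 817 in WT and 774, 837 and 616 in KO. These shares are a description with no test. FPKM and CPM per kilobase give the same shares by construction, because a factor common to all genes of a library cancels in a share. Such a factor does not cancel in the summed TPM, so the order of those sums across libraries is uncertain. In CPM, KO went from 616 to 424 for Scd1 and from 1706 to 1817 for Scd2 between passages 2 and 3.

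**Figure D3:**
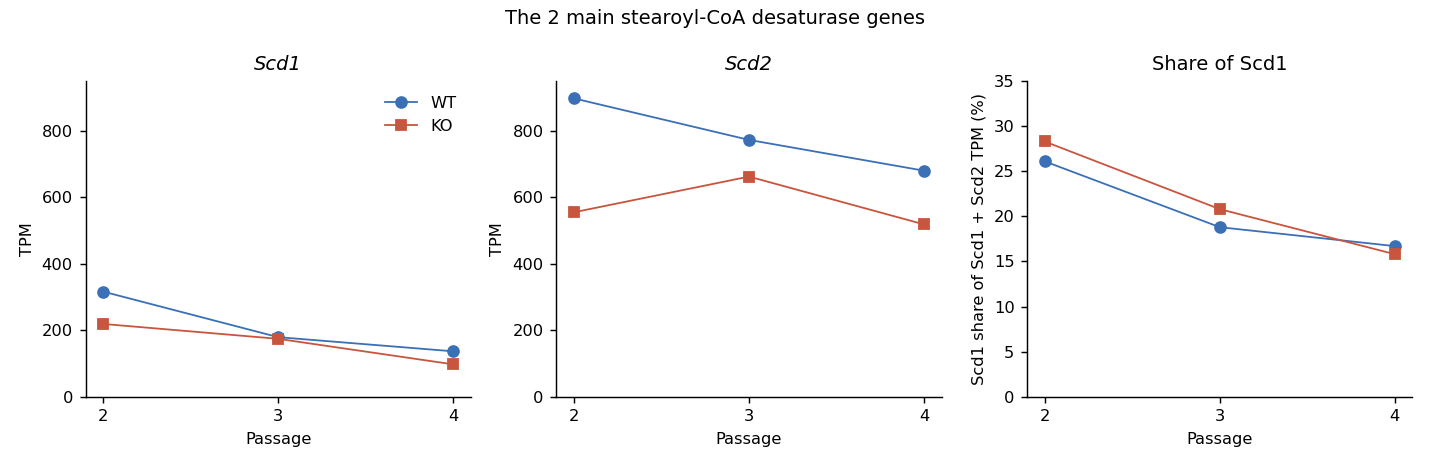
Scd1 and Scd2 by library in TPM, and the percentage of their sum that was Scd1, by genotype and passage. The percentage goes from 26.1% to 16.7% in WT and from 28.3% to 15.8% in KO, while Scd2 is the larger in every library.

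Markers of other cell types fell with passage beside Scd1. Of the 10 adipocyte markers listed 7 were tested and 6 fell, with a median slope of -1.16 on the log2 scale per passage. Adipoq, an adipocyte hormone, went from 9.43 to 0.166 CPM in WT and from 10.9 to 0.318 CPM in KO between passages 2 and 4, and the adipsin gene Cfd went from 6.12 to 0.166 and from 6.89 to 0.127 CPM. At passage 4, 3 counts amount to 0.124 CPM in WT and 0.0954 CPM in KO. The end values of both genes in WT and of Cfd in KO therefore rest on very few reads. The summed adipocyte markers, most of it the lipoprotein lipase gene Lpl, were 541, 435 and 293 CPM in WT and 307, 159 and 154 CPM in KO at passages 2, 3 and 4. All 8 macrophage markers fell (median slope -1.29 per passage), and their sum was 391, 219 and 60.3 CPM in WT and 282, 93.2 and 43.9 CPM in KO. Of the markers tested, 2 of 6 endothelial, 3 of 6 epithelial, 2 of 4 glial and 2 of 3 muscle genes also fell. Of the 6 hepatocyte markers Ttr and Serpina1a were at 0 in all 6 libraries. In bulk RNA fewer cells of a type and less RNA per cell cannot be told apart, and the part of these cells in the Scd1 level was not tested.

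**Figure D4:**
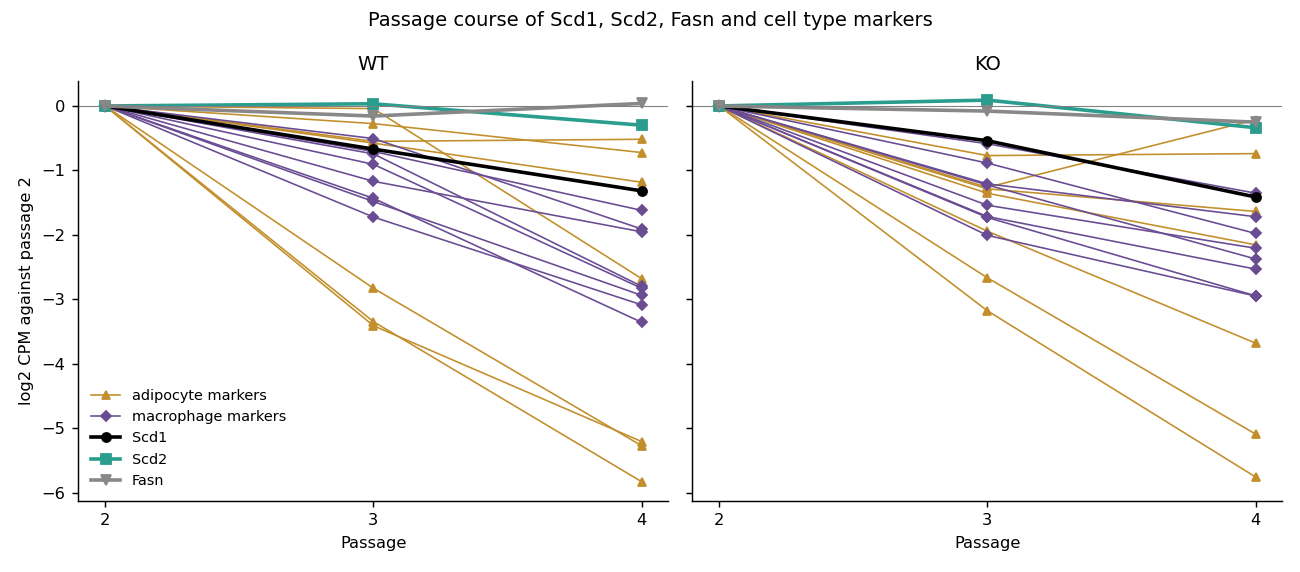
Level relative to passage 2 of the same genotype, as log2 of the CPM ratio, by passage, for Scd1, Scd2 and Fasn (thick lines), the 7 adipocyte markers tested and all 8 macrophage markers, with WT and KO in separate panels and 1 library per point. Scd1 ends at -1.32 in WT and -1.41 in KO, Scd2 at -0.30 and -0.34 and Fasn at 0.04 and -0.25, and 4 of 7 adipocyte markers end below Scd1 in WT (not Pparg, Cebpa or Lpl) and 5 of 7 in KO (not Pparg or Lpl), as do 8 of 8 macrophage markers in WT and 7 of 8 in KO (not Cd14).

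The difference between the WT and KO slopes was not called for any of the 10 members, and for 0 of the 16603 genes (0.0%) by edgeR, while 1137 genes (6.85%) had an unadjusted p under 0.05 and DESeq2 called 83. For Scd1 the KO slope minus the WT slope was -0.05 ± 0.12 on the log2 scale per passage (adjusted p = 0.959). The values farthest from 0 were -0.15 ± 0.12 for Fasn (adjusted p = 0.867) and -0.13 ± 0.11 for Srebf1 (0.878). With 2 residual degrees of freedom, the SE of 0.10 to 0.21 sets how small a difference could have been seen.

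The genes whose log2 CPM ran most like each member were sought among 121 pathway genes over the 6 libraries, as a description in which all points share genotype and passage. Scd2 ran with Pnpla3 (Pearson r = 0.99), a lipid droplet protein whose values rest on only 4 to 35 expected counts per library, and Elovl5 (0.975), an elongase of polyunsaturated fatty acids. Fads1 ran with Stard4 (0.99) and Pnpla3 (0.977), and Fads2 with Ppara (0.972) and Stard4 (0.966), Stard4 being a cholesterol carrier. Ppara had a low level, 0.445 to 0.877 CPM. Scd2, Fads1 and Fads2 also ran with each other (r = 0.925 to 0.952). For Scd1 the nearest were Pnpla2 (0.977), the adipose triglyceride lipase, and Cpt1b (0.929). Pnpla2 moved little, from 15.84 to 14.53 CPM in WT and from 15.69 to 14.15 CPM in KO between passages 2 and 4. Of the 64-base words of Cpt1b, 77.76% occurred in Gm44502, so its counts are uncertain. Acacb ran with Hadha (0.97) and Cpt2 (0.916), both genes of mitochondrial fatty acid oxidation. Hadha moved little, with 120.4 to 124.4 CPM in WT and 110.8 to 114.1 CPM in KO. Fasn ran opposite to Acacb (r = -0.72) and nearest to Mecr (0.974) and Acsl5 (0.923). Acly and Srebf1 ran with each other (0.9), Acly first with Sqle (0.907) and Srebf1 next with Elovl7 (0.711). Elovl6 ran with Pmvk (0.916) and Hsd17b8 (0.899), and Acaca with Nr1h3 (0.882) and Acsl1 (0.791). The counts of Hsd17b8 are uncertain too, with 67.56% of its words occurring in Gm20427.

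The other genes of the pathway were read from 8 lists of 116 genes in all, of which 111 were tested. In the genotype test 0 of 111 were called by edgeR, and with passage as a block 4 were higher and 8 lower, beside 11.1% of all genes called in that fit. The median genotype difference was -0.05 over the 111 and -0.22 over the 10 members. Among the enzymes that supply acetyl-CoA and NADPH (8 tested), the acetyl-CoA synthetase Acss2 had 26.4 ± 8.55 CPM in WT and 13.1 ± 1.73 in KO (SD, n = 3, log2 -1.01, adjusted p = 0.0727, and 0.0126 with the block), and the NADPH-producing enzyme Pgd had 135 ± 16.2 and 201 ± 29.9 CPM (log2 0.57, adjusted p = 0.0816, and 0.0218 with the block). For the lipid droplet coat gene Plin2, of the glycerolipid list (16 tested), the levels were 112 ± 8.04 and 157 ± 10.3 CPM (log2 0.49, adjusted p = 0.0528, and 0.0282 with the block), and for Pnpla3 0.653 ± 0.257 and 0.249 ± 0.107 CPM (log2 -1.36, adjusted p = 0.158, and 0.0490 with the block).

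Of the elongation and activation genes (14 tested), the dehydratase gene Hacd1 (log2 0.50, adjusted p = 0.114) and the acyl-CoA synthetase gene Acsl5 (0.33, 0.148) had the smallest p. The smallest among the other desaturation genes (7 tested) were those of Degs1, a dihydroceramide desaturase (0.54, 0.109), and Cyb5r3, a cytochrome b5 reductase (-0.27, 0.135). In the oxidation list (20 tested) they were those of Cpt2 (-0.47, 0.0801), a carnitine palmitoyltransferase, and Acadl (-0.30, 0.200), and in the cholesterol list (21 tested) those of Dhcr7 (-0.42, 0.105) and Hmgcs1 (-0.51, 0.113), with a list median of -0.24. Among the regulators (19 tested) they were those of the AMPK subunit gene Prkaa1 (0.26, 0.169) and of Srebf2 (-0.28, 0.178), the paralog of Srebf1 that acts mainly on cholesterol genes. The mitochondrial synthesis list (6 tested) was led by Mecr (0.57, 0.139) and Cbr4 (-0.26, 0.306). None of these genes passed the genotype test, and with the block Hacd1 and Degs1 were called higher and Cpt2, Dhcr7 and Hmgcs1 lower.

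**Figure D5:**
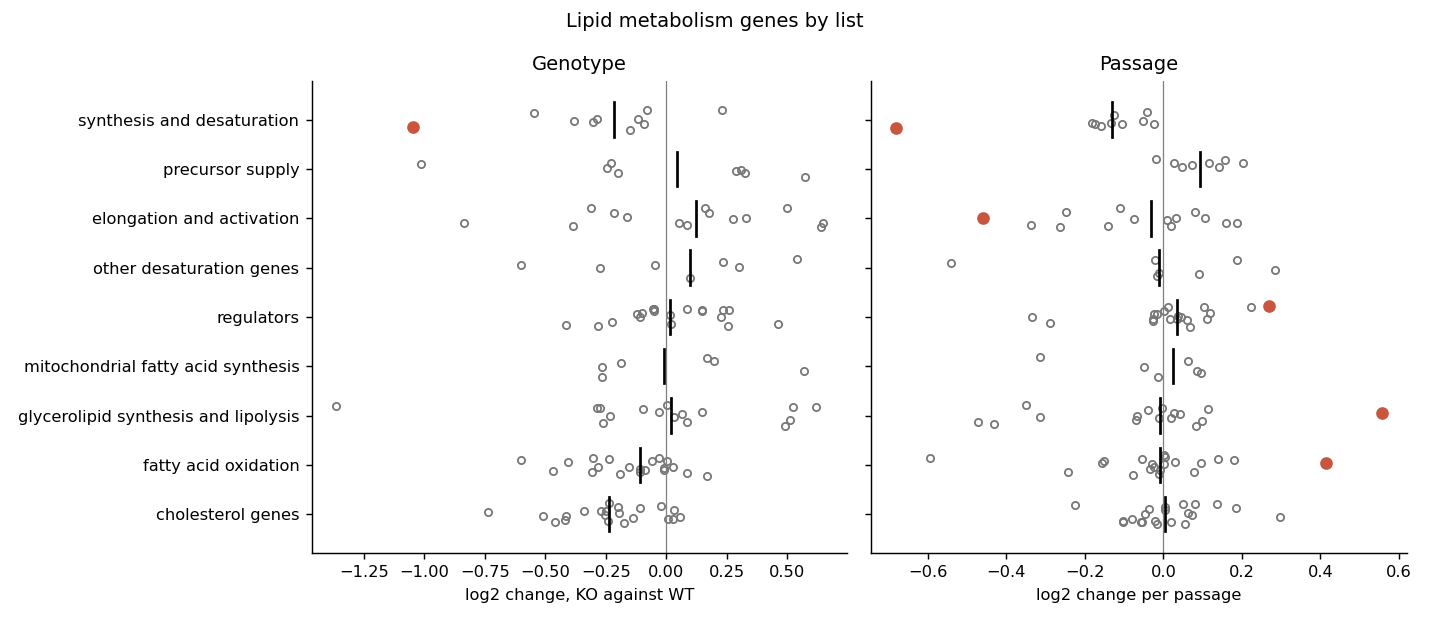
Log2 difference between KO and WT (genotype test) and log2 slope per passage of every tested gene of the 10 members and of the 8 other pathway lists, with 1 point per gene, called genes filled and a line at each list's median. The member medians are -0.22 for genotype and -0.13 for passage, and Scd1 lies farthest below 0 in the passage panel among the members.

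Across passages 4 of the 111 other pathway genes were called, 3 higher and 1 lower, beside 6.25% of all genes. The lipin gene Lpin1, which makes diacylglycerol, rose by 0.56 on the log2 scale per passage (adjusted p = 0.00953), the carnitine palmitoyltransferase gene Cpt1c by 0.41 (0.00977) and the nuclear receptor gene Rxra by 0.27 (0.0189). The long-chain acyl-CoA synthetase gene Acsl1 fell by 0.46 per passage (adjusted p = 0.0170), from 25.2 to 13.9 CPM in WT and from 27.2 to 14.0 CPM in KO between passages 2 and 4. In the lists without a called gene, the smallest p were those of Me1 (0.20, adjusted p = 0.144) and Pgd (0.16, 0.214) for precursor supply, and of Cyb5a (0.28, 0.0518) and Fads6 (-0.54, 0.124) for desaturation. They were those of Hsd17b8 (-0.31, 0.279) and Cbr4 (0.10, 0.521) for mitochondrial synthesis, and of Hsd17b7 (0.18, 0.115) and Stard4 (-0.10, 0.386) for cholesterol. Of the further Scd genes, Scd3 had 1 to 4 expected counts per library and was not tested, and Scd4 had 7 to 35 (0.252 to 0.877 CPM).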

How the data were processed

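RNA from 6 libraries of mouse embryonic fibroblasts was analysed, 3 per genotype. Trimmomatic 0.39 trimmed the reads and RSEM quantified them on GRCm38, per the submitters' processing notes. No RSEM version, annotation release or strand setting is stated in the labels used here. The deposited tables hold the authors' expected counts (12.1% to 15.8% not whole), TPM values, FPKM values and effective lengths. Of 55487 gene identifiers 55227 matched GENCODE M21. Expected counts were rounded, scaled by TMM, filtered by genotype (minimum count 10) and tested with edgeR 4.0.16 (robust quasi-likelihood, 2-sided) in R 4.3.3, p-values being adjusted over 16603 genes. The genotype fit held genotype, the passage fit genotype and a linear slope, and the third fit their interaction. Scripts were tested on simulated data. Alternatives used DESeq2 1.42.0, limma 3.58.1 on log2(TPM + 1), other filters, effective-length offsets, fewer libraries and the genotype tag.

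For the block, libraries were paired by passage number, and the labels do not say whether the cultures themselves were paired. Deviations from the genotype means correlated at 0.488, 0.137 and 0.416 within passages 2, 3 and 4, and at -0.428 to -0.003 between unlike passages. Deviations within a genotype sum to 0, which lowers the values between unlike passages. No libraries were duplicates (chi-square per degree of freedom 22.8 or more). Limits from counts cover counting error only.

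The 10 genes and the lists were chosen with earlier results of these data known. All 10 are named. From each other list were named the genes past the threshold, at most 4 per test, or otherwise the 2 with the smallest p. Other genes were chosen after their values were seen.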

Additional observations from a re-analysis of the deposited data

How the results depend on the processing

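Of the 10 members, 1 was called in the genotype test. The count was 2 with DESeq2, where Scd2 joined Acacb (adjusted p = 0.0177), and 3 with passage as the replicate block. It was 0 with the stricter filter (Acacb adjusted p = 0.0522), on log2(TPM + 1), with effective lengths and without both passage 2 libraries. It was 0 to 1 when 1 library was left out. The genotype tag sets 1 KO library against 5, which cannot check these calls, and its count is not given. The passage count of 1 became 0 without both passage 2 or both passage 4 libraries, fits with fewer samples, and was 1 to 1 with 1 library left out. The slope difference gave 0 in each fit run. The block changed no other member's call. The shares were nearly fixed across the units by construction, so that comparison is no check on them. The cause of the other changes was not tested.

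Some differences that were not called changed sign, that of Scd1 from -0.38. On log2(TPM + 1) the genotype differences were 0.014 for Acly, 0.0039 for Acaca, 0.037 for Elovl6 and 0.0189 for Srebf1, and the Fasn passage slope was 0.0215. In those fits the medians over all genes were 0.0764 for genotype and 0.0205 for passage, against -0.0129 and 0.0035 in the main fits. These 4 genotype differences thus stayed below the all-gene median. The genotype tag sets 1 KO library against 5, of which 2 are titled KO, so its fit is no check on these differences. The genotype differences there were 0.0168 for Acly, 0.14 for Acaca, 0.0020 for Elovl6 and 0.41 for Scd1. With 1 library left out, genotype differences ranged from -0.17 to 0.0337 for Acaca, -0.19 to 0.0239 for Elovl6 and -0.75 to 0.0084 for Scd1, and slopes from -0.0849 to 0.0036 for Acly, -0.13 to 0.0029 for Fasn and -0.10 to 0.0300 for Srebf1. Without both passage 2 libraries the slopes were 0.0615 for Acaca, 0.0090 for Fasn and 0.0236 for Srebf1, and without both passage 4 libraries 0.14 for Elovl6, 0.0675 for Scd2, 0.0682 for Fads1 and 0.19 for Fads2.

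Over all genes, 412 genotype calls (37.6% higher) became 1661 with DESeq2, 846 without a filter and 1835 with the block. They became 59 without both passage 2 libraries and 38 to 847 with 1 library left out. On log2(TPM + 1) there were 387, 56.6% of them higher. The 1038 passage calls became 1709 with DESeq2, 2443 without a filter, 11 without both passage 2 libraries, 146 without both passage 4 libraries and 278 to 1286 with 1 left out. Acacb had the fewest counts of the members, 118 to 376 per library.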
